A study of Caenorhabditis elegans with 2 samples.

Results

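The genes described here are 47 pre-mRNA splicing factor genes of Caenorhabditis elegans, out of 19973 nuclear protein-coding genes. They were chosen by symbol from the Ensembl annotation of the WBcel235 genome. The 7 symbol classes give 8 rsp- genes for SR proteins, 7 snr- genes for Sm proteins, 5 snrp- genes for other snRNP proteins, 13 prp- genes, 3 sftb- genes for SF3b subunits, 2 uaf- genes for U2AF and 9 rnp- genes for proteins with an RNA recognition motif. The class names do not make every member a splicing factor: rnp-8 is known as a partner of the cytoplasmic poly(A) polymerase GLD-2. The measure was chromatin immunoprecipitation with sequencing (ChIP-seq) of eGFP-tagged MEP-1. This zinc-finger protein acts with the chromatin remodeller LET-418 and the histone deacetylase HDA-1.

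All samples belong to 1 group, with 2 biological replicates and no second condition. The animals were whole mixed-stage embryos of strain OP70, which has the genotype unc-119(ed3) III; wgIs70, from pooled males and females. Neither the sequence that drives the tagged mep-1 in wgIs70 nor the state of the endogenous gene is stated by the labels. The material was whole embryos, so many cells with some MEP-1 at a site and few cells with much cannot be told apart. The stage was taken from the labels, because region lists hold no expression values.

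Splicing removes introns from the primary transcript. The spliceosome that does so is built on each intron from small nuclear ribonucleoproteins (snRNPs), which are RNAs clothed by a ring of Sm proteins and by proteins particular to U1, U2, U4, U5 or U6. SR proteins bind exons and help the U1 snRNP and the U2AF heterodimer to recognise the splice sites. PRP factors, named from yeast mutants, build the tri-snRNP, activate the complex and carry out the second step. In worms many genes also lie in operons, whose downstream messages are separated by trans-splicing of a short leader carried by its own snRNP.

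A deposited region counted as a promoter peak of a gene when its summit was at most 1000 bp before or 200 bp after the annotated gene start. Peaks were taken from the optimal set of the irreproducible discovery rate (IDR) procedure, which is meant to favour regions found in both replicates. This set holds 2404 peaks on the ce11 build, which is WBcel235. Its deposited signal values, a strength given by the authors' peak caller, run from 34.2 to 357.3 with a median of 52.4. Weaker candidates came from the list of the pooled reads, with 30000 regions. The lists of the replicates hold 25216 regions for replicate 1 and 30000 for replicate 2. Signal was ranked and compared within a list only, and the read depth behind it is unknown. The IDR set is identical to the 2404 strongest pooled regions, so a pooled rank above 2404 stands for a region outside it. Some of its peaks had no matching region in 1 of the replicates, as described for prp-8 and uaf-2.

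Promoter peaks of rsp-6, rsp-3, rsp-1 and rsp-5 are shown as sequence for the SR class. The peak of prp-8 is shown because it is matched in replicate 1 and not in replicate 2. The strong peak of rsp-7 is not shown, since its summit lies in an exon. Each window has 101 bases of WBcel235 centred on the summit, which is base 51, and is written 5′ to 3′ in the direction of the named gene. The windows lie at chrIV:7791363-7791463 on the minus strand for rsp-6, chrIII:12688154-12688254 on the minus strand for rsp-3 and chrII:11453174-11453274 on the plus strand for rsp-1. They lie at chrII:6489925-6490025 on the plus strand for rsp-5 and chrIII:8164022-8164122 on the plus strand for prp-8. None of them overlaps an annotated exon. The window of rsp-1 is also that of rsp-2, and the window of rsp-5 is also that of snr-3, on the opposite strand. Capitals mark TTCGCGC, an E2F-like motif, TTTCAG, the splice acceptor consensus, and GCGTCGCG, which was read off these windows, or their reverse complements.
rsp-6: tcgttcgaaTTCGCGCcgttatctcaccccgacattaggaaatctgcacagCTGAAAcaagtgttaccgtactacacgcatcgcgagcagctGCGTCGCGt
rsp-3: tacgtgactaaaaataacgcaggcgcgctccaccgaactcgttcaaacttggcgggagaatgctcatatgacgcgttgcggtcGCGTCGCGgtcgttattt
rsp-1: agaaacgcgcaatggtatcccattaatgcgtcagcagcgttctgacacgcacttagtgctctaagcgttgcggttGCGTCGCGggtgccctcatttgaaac
rsp-5: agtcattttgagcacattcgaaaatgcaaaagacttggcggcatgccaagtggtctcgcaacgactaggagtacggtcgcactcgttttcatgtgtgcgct
prp-8: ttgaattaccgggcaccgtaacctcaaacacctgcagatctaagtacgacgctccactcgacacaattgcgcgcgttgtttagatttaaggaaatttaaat

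MEP-1 peaks lay in the promoters of 22 of the 47 genes (46.8%, exact 95% interval over genes 32.1% to 61.9%). Across all 19973 protein-coding genes 2275 had one, which is 11.4%. The genes were put forward with these peaks and signal values known, so the difference is given as a description without a test. Because divergent neighbours share peaks, the 22 genes rest on 20 distinct peaks. By class, the genes with a peak were 7 of 8 SR genes, 5 of 7 Sm genes, 2 of 5 snrp- genes, 4 of 13 prp- genes, 1 of 3 sftb- genes, 1 of 2 uaf- genes and 2 of 9 rnp- genes. Of the 32 genes outside the SR and Sm classes, 10 had a peak (31.3%).

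**Figure D1:**
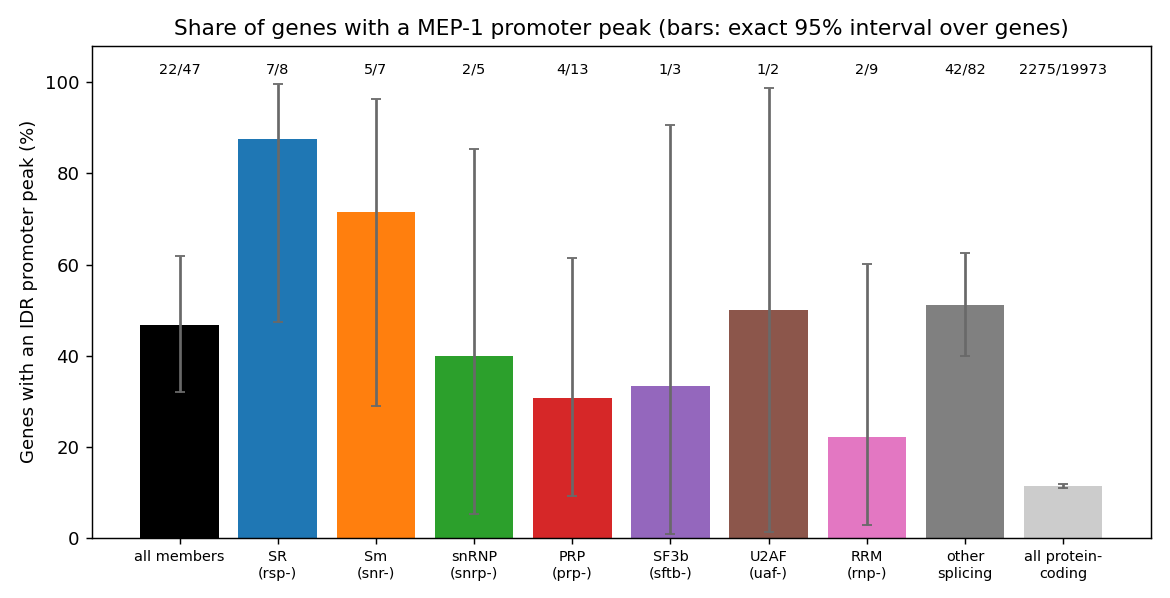
Share of genes with an IDR promoter peak (percent, bars) in all members, in each symbol class, in the other splicing genes and in all protein-coding genes, with exact 95% intervals over genes and the counts above the bars. The SR bar stands at 87.5% and the Sm bar at 71.4%, and the bar for all protein-coding genes at 11.4%.

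SR proteins had the most frequent and, at the median, the strongest peaks of the 7 classes. The 7 SR genes with a peak had a median signal of 90.5 (range 68.0 to 171.0), against 57.7 over all genes with a promoter peak. All 7 were among the 1202 strongest IDR peaks. The highest belonged to rsp-6 (WBGene00004703, chrIV:7789847-7791229, minus strand), an SRp20-like protein, with a signal of 171.0 and rank 35 of the IDR set. Its summit lay 184 bp upstream of the gene, and no other gene shared it. In replicate 1 the matching region had a signal of 31.9 and rank 82, and in replicate 2 a signal of 137.4 and rank 40. It was thus near the top of both lists.

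The next SR peak was that of rsp-3 (WBGene00004700, chrIII:12686182-12687922, minus strand), the homolog of the human splicing factor SRSF1, with a signal of 107.3 and rank 186. It lay 282 bp upstream of rsp-3 and nearer, at 114 bp, to the divergent gene spin-4. Its region had a signal of 17.4 and rank 524 in replicate 1, and a signal of 90.6 and rank 167 in replicate 2. For rsp-7 the signal was 91.1 and the rank 321, with the summit 283 bp upstream. This summit was inside an exon of the noncoding gene M28.13 and was shared with snu-13, which encodes a protein of the U4 snRNP, 297 bp away on the other strand. Replicate 1 gave it a signal of 14.4 at rank 825, and replicate 2 gave 76.7 at rank 283.

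A single peak served rsp-1 and rsp-2, which are transcribed away from each other. Its signal was 90.5 at rank 326, and the summit lay 138 bp upstream of rsp-1 and 269 bp upstream of rsp-2. Its rank was 2007 in replicate 1, with a signal of 8.9, and 223 in replicate 2, with a signal of 82.8. The remaining SR peaks were those of rsp-5, with a signal of 84.4, and of rsp-8, the worm homolog of the splicing activator Tra2. The rsp-8 peak had a signal of 68.0 at rank 708, stood alone 575 bp upstream, and had rank 3470 in replicate 1 and 551 in replicate 2.

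The SR gene without a promoter peak was rsp-4, the homolog of human SRSF2, for which no list held a promoter region. The nearest summit lay 1293 bp upstream, outside the window, in the promoter of ndx-6. That peak had a signal of 104.9 and rank 203. The gene ndx-6 lies on the same strand, and its annotated end overlaps the start of rsp-4 by 8 bp.

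The Sm proteins form the ring on the U1, U2, U4 and U5 snRNAs, and 5 of their 7 genes had a promoter peak. Their median signal was 80.4 (range 61.7 to 90.0), and all 5 peaks were among the 1202 strongest. The strongest was that of snr-6, which encodes SmE, with a signal of 90.0 at rank 331. Its summit lay 273 bp upstream and was shared with Y49E10.16, 607 bp away. Replicate 1 gave a signal of 28.7 at rank 121, and replicate 2 gave 61.9 at rank 512. Its rank was thus better in replicate 1 than in replicate 2, as was that of the peak shared by rsp-5 and snr-3. All other SR and Sm peaks ranked better in replicate 2.

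The gene for SmD1, snr-3, shared 1 peak with the SR gene rsp-5. This peak joined both classes, with a signal of 84.4 at rank 397 and a summit 214 bp upstream of snr-3 and 190 bp upstream of rsp-5. Its rank was 444 in replicate 1, with a signal of 18.6, and 513 in replicate 2, with a signal of 61.9. The peak of snr-4, which encodes SmD2, had a signal of 80.4 at rank 466 and lay 369 bp upstream. Its summit was inside an exon of the noncoding gene C52E4.14, and an annotated snRNA gene, T11F9.15, lay within 500 bp. The snr-4 region had a signal of 6.7 and rank 3522 in replicate 1, and a signal of 72.8 and rank 326 in replicate 2. MEP-1 signal at the snRNA gene and at snr-4 cannot be told apart there.

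The gene for SmD3, snr-1, had a peak with a signal of 75.7 at rank 551. It lay 424 bp upstream of snr-1 and nearer, at 187 bp, to snx-13. Replicate 1 gave it a signal of 10.7 at rank 1410, and replicate 2 gave 68.7 at rank 392. The peak of snr-2, which encodes SmB, had a signal of 61.7 and lay closer to W08E3.4 than to snr-2. The other 2 Sm genes had weak pooled candidates only. The pooled region at snr-7, for SmG, had a signal of 22.1 at rank 4258 and lay 253 bp upstream, with 22.1 in replicate 2. The only replicate 1 region in this promoter, at 4.7, lay 595 bp upstream, so none matched within 100 bp. The region at snr-5, for SmF, had a pooled signal of 16.2 at rank 6838, with none in replicate 1 and 13.5 in replicate 2.

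Set side by side, the share with a peak was 87.5% (47.3% to 99.7%) for SR genes and 71.4% (29.0% to 96.3%) for Sm genes. The difference of 16.1 percentage points is a description without a test, since these classes were put forward with their peaks known and some of their genes share a peak. The median of the strongest pooled promoter signal was 90.5 for SR genes and 75.7 for Sm genes, with a gene without a region counted as lowest. This difference of 14.9 depended on how shared peaks and classes were counted. When a peak counted only for its nearest gene, the median was 76.2 for SR genes and 0 for Sm genes, and the Sm share was 28.6%. With snr- and snrp- genes pooled as core snRNP genes, the median was 90.5 for SR genes and 53.4 for core snRNP genes. From replicate 1 alone, in the units of its list, it was 11.6 for SR genes and 9.80 for Sm genes. Signals of the classes overlapped, since rsp-8 at 68.0 was below snr-1, snr-4, snr-3 and snr-6. Median ranks, unlike the median signals, left out genes with no promoter region. In replicate 2 the median rank was 223 for 7 SR genes and 513 for 7 Sm genes. In replicate 1 the medians were 825 for 7 SR genes and 1529 for 6 Sm genes, without rsp-4 and snr-5. The order over genes with a region was thus the same in each replicate, although both classes count the shared peak of rsp-5 and snr-3.

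**Figure D2:**
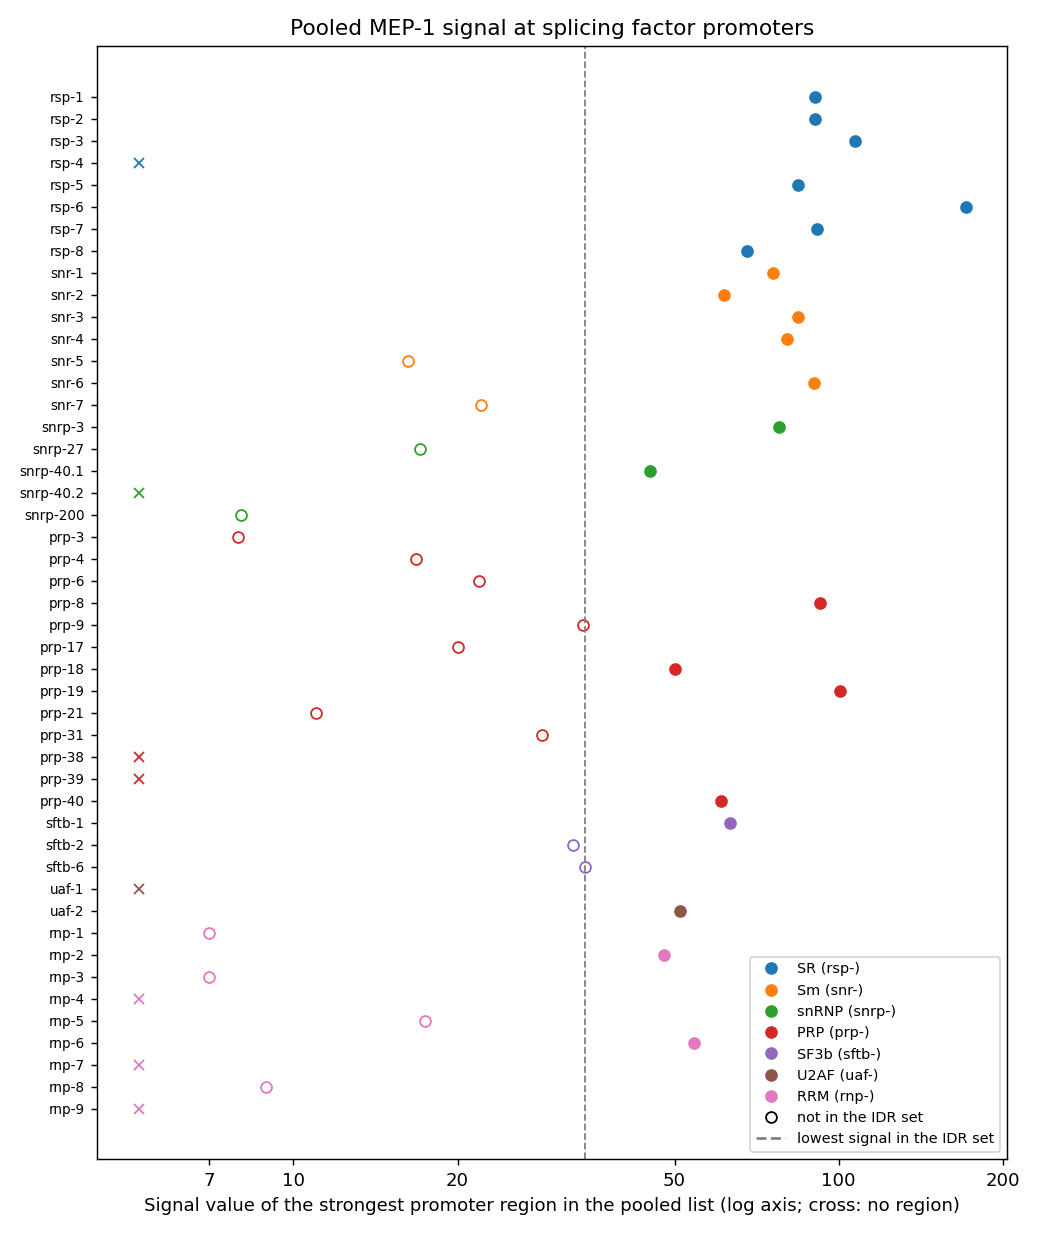
Signal of the strongest promoter region in the pooled list (log axis) for each of the 47 genes, coloured by class, with filled circles for regions of the IDR set, open circles for weaker candidates and crosses at an arbitrary place on the left for genes with no region. The SR genes other than rsp-4 lie between 68.0 and 171.0, and the rnp- genes spread from no region to 54.2.

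Outside the Sm ring, snRNP proteins were split. The peak of snrp-3 had a signal of 77.8 at rank 513, stood alone 142 bp upstream, and had rank 164 in replicate 1 and 933 in replicate 2. That of snrp-40.1, a homolog of the U5 40K protein, was the weakest member peak inside the IDR set, with a signal of 45.1 at rank 1577. It lay 42 bp upstream and was shared with F08G12.3. Replicate 1 gave it a signal of 2.6 at rank 18478, and replicate 2 gave 52.4 at rank 801. The genes snrp-27, snrp-40.2 and snrp-200 had no promoter peak. The pooled signal was 17.1 at snrp-27, with no region in replicate 1 and 14.6 in replicate 2. It was 8.0 at snrp-200, which encodes the Brr2 helicase that unwinds U4 from U6, with none in replicate 1 and 7.8 in replicate 2. No pooled region was present at snrp-40.2, although replicate 1 had a region with a signal of 4.2.

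Of the PRP genes, prp-19, prp-8, prp-40 and prp-18 had a promoter peak. The peak of prp-19, a ubiquitin ligase of the activated spliceosome, had a signal of 100.5 at rank 233. Its summit lay 659 bp upstream of prp-19, farther than for any other member, and 16 bp from the 5′ end of K10D2.5, with emb-1 as another gene in range. Replicate 1 gave a signal of 4.7 at rank 7114, and replicate 2 gave 94.0 at rank 152. The peak of prp-8 (WBGene00004187, chrIII:8164373-8172710, plus strand), the U5 protein at the heart of the active site, had a signal of 92.3 at rank 311 and lay 301 bp upstream. It had a region in replicate 1, with a signal of 16.0 at rank 654, but replicate 2 had no summit closer than 5409 bp. It was shared with bath-42.

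The peak of prp-40, a U1-associated factor, had a signal of 60.9 at rank 891 and lay 162 bp upstream, in range of clu-1. Its rank was 5754 in replicate 1 and 796 in replicate 2. That of prp-18, a factor of the second step, had a signal of 50.1 at rank 1323, lay 61 bp upstream and was shared with mccc-1. Its ranks were 1623 in replicate 1 and 1574 in replicate 2. The other 9 PRP genes had no promoter peak, among them the tri-snRNP genes prp-3, prp-4, prp-6 and prp-31. Those with the strongest pooled candidates were prp-9, an SF3a subunit, at 34.0, prp-31 at 28.6, prp-6 at 21.9 and prp-17, a factor of the second step, at rank 4916. In the replicates, prp-9 had 9.1 in replicate 1 and 21.2 in replicate 2, and prp-17 had 2.9 in replicate 1 and 13.9 in replicate 2. The other candidates were in 1 replicate each, prp-31 with 6.4 in replicate 1 and prp-6 with 16.8 in replicate 2. The pooled signal was 16.8 at prp-4, 11.0 at prp-21 and 7.9 at prp-3, and neither prp-38 nor prp-39 had a pooled region.

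SF3b and U2AF recognise the branch point and the 3′ splice site. The peak of sftb-1, the homolog of human SF3B1, had a signal of 63.2 at rank 821 and lay 443 bp upstream, but 30 bp from R10E4.1. Its rank was 330 in replicate 1, with a signal of 21.1, and 1254 in replicate 2, with a signal of 41.6. The other SF3b genes were just outside the IDR set. The pooled region of sftb-6 had rank 2407 and that of sftb-2 rank 2574, while the weakest IDR peak has rank 2404. The pooled signal of sftb-6 was 34.2, with the summit 215 bp upstream and 26.2 in replicate 2. The replicate 1 region, at 5.1, had its summit 341 bp upstream, more than 100 bp from the pooled one. That of sftb-2 was 32.6, with 3.6 in replicate 1 and 28.6 in replicate 2. With prp-9 at rank 2426, these are the members nearest the limit from outside, and snrp-40.1 at rank 1577 is the nearest from inside. The small U2AF subunit gene uaf-2 had a peak with a signal of 51.1 at rank 1273, 38 bp upstream, in range of itsn-1. It had rank 853 in replicate 2, and no summit of replicate 1 lay closer than 717 bp. The large subunit gene uaf-1 had no promoter region in any list.

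Among the rnp- genes, rnp-6 and rnp-2 had a promoter peak. For rnp-6, the homolog of human PUF60, the signal was 54.2 at rank 1121, with the summit 112 bp upstream and nearer to rde-10, at 49 bp. The ranks were 669 in replicate 1 and 1715 in replicate 2. For rnp-2, which encodes protein A of the U1 snRNP, the signal was 47.8 at rank 1441, with the summit 128 bp upstream and shared with K08D10.13. Its rank was 22749 in replicate 1 and 1069 in replicate 2. No promoter peak was found for rnp-1, rnp-3, rnp-4, rnp-5, rnp-7, rnp-8 or rnp-9. The strongest of their pooled candidates were 17.4 at rnp-5, the homolog of human RNPS1, and 8.9 at rnp-8, followed by 7.0 at rnp-1 and 7.0 at rnp-3. The rnp-5 candidate lay 218 bp upstream, with 13.4 in replicate 2. In replicate 1 this promoter held only a separate region, 833 bp upstream, at 2.7. The gene rnp-8 had a region in replicate 2 only, at 9.7. No pooled region was present at rnp-4, rnp-7 or rnp-9.

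The replicates were compared peak by peak. Of the 20 member peaks, 18 had a summit within 100 bp in each replicate, the exceptions being prp-8 without replicate 2 and uaf-2 without replicate 1. Taking the 2404 strongest regions of replicate 2 alone, 22 members (46.8%) had a promoter region, against 11.0% of all genes, and 21 of them were the same, with prp-8 lost and sftb-2 gained. Taking those of replicate 1 alone, 16 members (34.0%) had one, against 9.43% of all genes, and 15 were the same. The members lost there were rsp-8, snr-4, snrp-40.1, prp-19, prp-40, uaf-2 and rnp-2, and prp-9 was gained. The description of the replicate 2 list names no control alignment, while that of the replicate 1 list does. The part of this in the ranks was not tested.

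**Figure D3:**
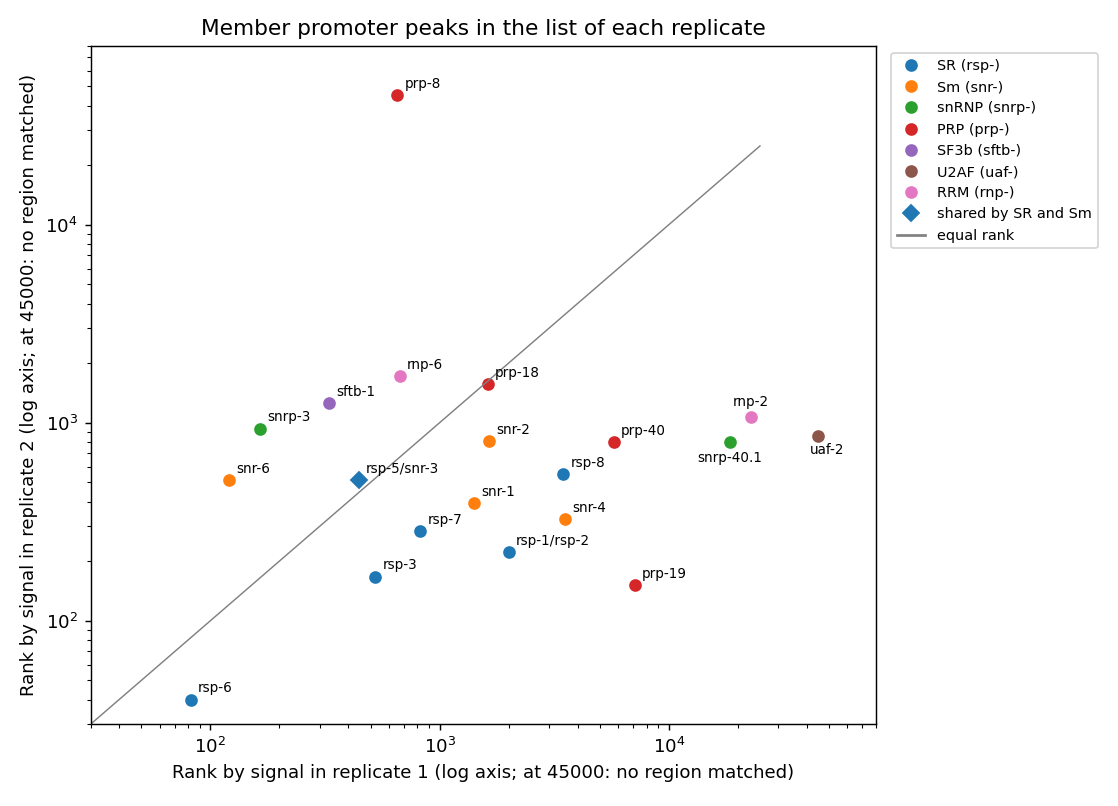
Rank of each of the 20 member promoter peaks by signal in replicate 1 (horizontal, log axis) and replicate 2 (vertical, log axis), with low ranks for strong regions, points placed near the outer edge where no summit lay within 100 bp, and a line of equal rank. The rsp-6 peak is nearest the strong corner, with ranks 82 and 40, while rnp-2, snrp-40.1 and prp-19 rank far better in replicate 2 than in replicate 1.

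Weaker candidates were frequent at these genes and across the genome. Any pooled region was in the promoter of 39 members (83.0%), against 39.2% of all genes. Replicate 1 had a candidate at 33 members (70.2%), against 34.6% of all genes, and replicate 2 at 36 members (76.6%), against 39.7% of all genes. The members with no promoter region in any of the lists were rsp-4, prp-39, uaf-1 and rnp-4. The pooled candidates hold background by their own description, so these counts include background.

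The member summits lay upstream of all 22 genes, from 38 to 659 bp away. The median distance was 242 bp for the members, with 269 bp for SR genes and 369 bp for Sm genes, against 225 bp over all genes with a peak. A peak was in range of another protein-coding gene for 18 of the 22 members (81.8%), against 1295 of 2275 genes with a peak (56.9%). Each of these 18 members had such a neighbour on the opposite strand. For spin-4, snx-13, W08E3.4, K10D2.5, R10E4.1 and rde-10, the summit was nearer to the neighbour than to the member. The gene to which such a peak belongs cannot be told apart by position alone. When a peak counted only for its nearest gene, 14 members (29.8%) kept one, against 8.10% of all genes, with 5 SR genes and 2 Sm genes among them. In the shared peaks of members, rsp-1 was nearer than rsp-2 and rsp-5 nearer than snr-3.

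**Figure D4:**
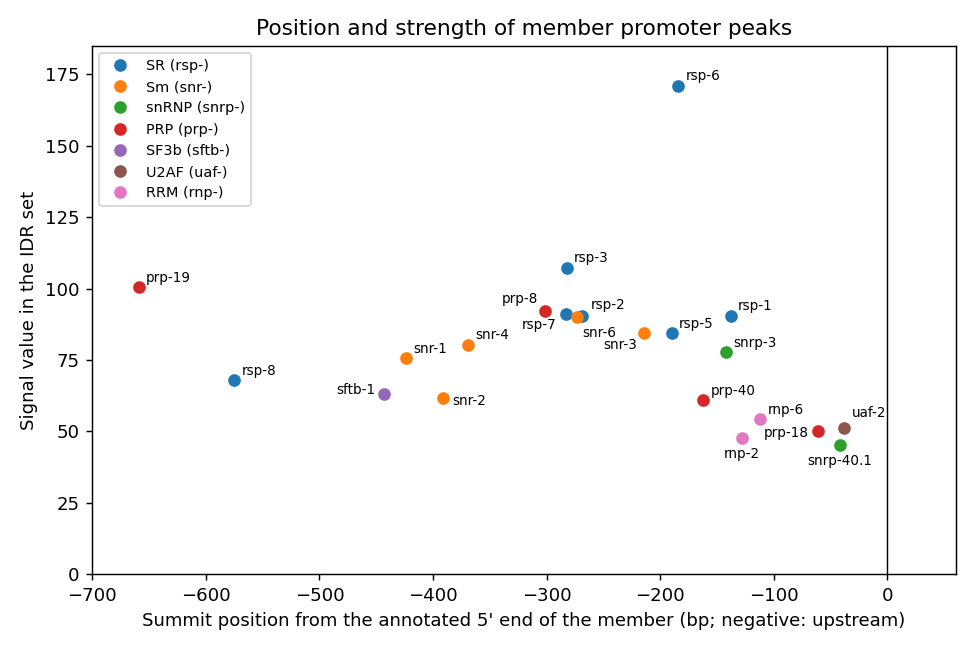
Position of the IDR summit relative to the annotated 5′ end of each of the 22 members (bp, negative upstream) against the signal of that peak. The rsp-6 peak stands above the rest at 171.0, the prp-19 peak lies farthest at 659 bp, and all points are to the left of the 5′ end.

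Other windows moved the counts with the genome. From 500 bp upstream to 100 bp downstream, 20 members (42.6%) had a peak, against 9.34% of all genes. From 2000 bp upstream to 500 bp downstream, 27 (57.4%) had one, against 14.7%, and rsp-4, sftb-2, rnp-1, rnp-4 and rnp-7 were the additions. Taking the 5′ end of any annotated transcript gave 22 members (46.8%), against 12% of all genes. Taking the 1202 strongest IDR peaks gave 18 members (38.3%), against 6.60%, and those lost were snrp-40.1, prp-18, uaf-2 and rnp-2.

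Many members without a promoter peak follow another gene closely on the same strand, as the later genes of worm operons do. A chain was counted where a gene started at most 500 bp after, or up to 100 bp before, the end of the gene upstream of it. This count was added after the nearest peaks had been seen. Of the 25 members without a promoter peak, 10 had such an upstream gene (40.0%), against 2 of the 22 members with a peak, which were rsp-6 and snrp-3. Over all genes the shares were 19.8% of those without a peak and 12.4% of those with one. In each of the 10 chains, the first gene had an IDR promoter peak. The same was true for 872 of the 3510 chained genes without a peak genome-wide (24.8%). Annotated operons were not used, so a chain is a matter of spacing only.

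Some of these first genes also act in splicing. The gene rnp-7, which encodes U1-70K, starts 4 bp after syf-2, a spliceosome factor with a promoter signal of 161.3 at rank 45. The gene prp-38, needed for spliceosome activation, starts 106 bp after plrg-1, another spliceosome factor, with a signal of 115.1 at rank 143. The gene rnp-3, for the U2B″ protein, starts 72 bp after rnp-2, with a signal of 47.8. The other pairs join splicing genes to genes of other functions. The gene prp-39 starts 90 bp after hmgs-1, which encodes HMG-CoA synthase, with a signal of 119.9. That summit lay 158 bp upstream of hmgs-1 and nearer, at 126 bp, to F25B4.4. The gene snrp-200 starts 121 bp after pisy-1, with a signal of 77.6. The gene rnp-4, for the exon junction protein Y14, directly abuts snfc-5, a SWI/SNF subunit gene, with a signal of 73.8. That summit lay 252 bp upstream of snfc-5 and nearer, at 98 bp, to R07E5.17. Such a shared peak cannot be given to the first gene of the chain alone.

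In the remaining chains the peak of the first gene was weaker. For rsp-4 the first of 5 genes was fbxl-3, with a signal of 44.3. That summit lay 492 bp upstream of fbxl-3 and nearer, at 144 bp, to mog-5. The direct neighbour of rsp-4, ndx-6, had the peak of 104.9. For snrp-27 the first of 6 genes was ran-4, with a signal of 42.8. For snrp-40.2 the first of 5 genes was suco-1, with a signal of 35.7, and for prp-3 it was smrd-1, with 38.6. The gene directly upstream had a promoter peak in 8 of the 10 cases, against 19.3% genome-wide. Counting a peak at the gene or at the first gene of its chain gave 32 of the 47 members (68.1%), against 15.8% of all genes. With a gap of at most 200 bp, 8 members without a peak were in a chain and 7 of the first genes had a peak, against 31.4% genome-wide. With 1000 bp the member counts were those at 500 bp.

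Splicing genes outside the 7 symbol classes were counted from lists of 97 symbols, of which 82 matched a gene. A promoter peak was present at 42 of the 82 (51.2%, 39.9% to 62.4%), and their median signal was 61.7. At 26 of these 42 genes (61.9%) the peak was also in range of another protein-coding gene. Of the helicases and second-step factors, 10 of 20 had a peak, the strongest at syf-2 (161.3), plrg-1 (115.1) and ddx-15 (68.8). The syf-2 summit lay nearer to K04G7.1, and the ddx-15 peak was shared with ucr-1. Of the factors of commitment and the U2 snRNP, 10 of 18 had one, led by rsr-1 (96.3), rbm-5 (81.3) and smu-1 (74.5). Of the Sm-like LSM genes 4 of 7 did, led by lsm-3 (95.7), gut-2 (70.1) and lsm-7 (54.2). The lsm-3 summit lay 902 bp upstream and was shared with Y62E10A.23, mdt-9 and Y62E10A.20. The share of the Sm-like genes was thus 57.1% and that of the Sm genes 71.4%, with few genes in each.

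Among genes of snRNP assembly, trans-splicing, the cap-binding complex and SR kinases, 5 of 12 had a peak. They were led by sna-3 (84.4), whose peak was shared with the ribosomal gene rps-3, by spk-1 (78.5), which encodes the SR protein kinase, and by ncbp-1 (47.9). Of the hnRNP genes and tissue regulators, 13 of 25 had a peak. Their strongest were fust-1 (153.6), swp-1 (151.4) and hrpa-1 (140.6). The swp-1 summit lay 893 bp upstream of that gene and was shared with the ribosomal gene rpl-23. These 3 peaks, of fust-1, swp-1 and hrpa-1, were stronger than every member peak but that of rsp-6.

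Motifs were searched on both strands in windows reaching 100 bases to each side of the summits. TTCGCGC was in 2 of the 20 member windows (10%), at rsp-6 and snr-4, against 6.40% of the 1609 other IDR promoter peaks and 2.07% of 6556 pooled promoter candidates outside the IDR set. GAGAGA was in 3 member windows (15%), against 34.7% and 20.1% in these sets in the same order. CCGCCC was in 3 (15%), against 9.76% and 6.42%, and CTGCGTCT in 2 (10%), against 12.2% and 6.12%. TTTCAG was in 5 (25%), against 20.8% and 30.2%. None of these motifs was shared by more than 5 of the 20 windows. In promoters of 1201 bases, TTCGCGC was present at 6 of the 47 members (12.8%) and 3 of the 8 SR genes, against 6.53% of all promoters. GAGAGA was at 51.1% of members, against 50.9% of all promoters, and CCGCCC at 19.1%, against 19.2%. CTGCGTCT was at 12.8%, against 8.63%, and TTTCAG at 100%, against 92.4%. Of the 8 SR genes, 5 had GAGAGA, 0 had CCGCCC, 1 had CTGCGTCT and 8 had TTTCAG.

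GCGTCGCG was chosen after the sequences had been seen, from windows that it is counted in again, so its count is a description. It occurred in 4 member windows (20%), those of rsp-6, rsp-3, rsp-1 with rsp-2, and snr-1. It occurred in 71 of the other IDR promoter peaks (4.41%) and in 0.625% of the candidates outside the set. In the windows printed above it lies downstream of the summit in rsp-6, rsp-3 and rsp-1, on the strand of the named gene. Side and strand depend on the gene named. For rsp-2, which shares the rsp-1 window, the motif lies upstream of the summit on the opposite strand. The shorter GCGTCG, which every GCGTCGCG contains, was in 6 member windows (30%), against 10.9% and 4.42%. In promoters of 1201 bases, GCGTCGCG was present at 7 members, 4 of them SR genes, against 2.09% of all promoters. The SR genes were those whose windows it was read off, with the site in the shared rsp-1 and rsp-2 window counted for both genes. The median GC content was 40.8% in member windows, 41.3% in other IDR promoter peaks and 36.8% in the candidates outside the set, so base composition differed from the candidates alongside the motif counts. Its part in the motif counts was not tested.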

How the data were processed

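ChIP-seq region lists from 2 biological replicates of 1 group were used on the ce11 build. Per the labels, each replicate and the pooled reads have a list of peaks and background as input for IDR, and the optimal set passed the IDR threshold. The deposited signal values and the −log10 q-values come from the authors' peak caller. The −log10 q-values share a ceiling in all 2404 deposited IDR peaks, so regions were ranked by signal. Aligner, peak caller and IDR limit were not given in the sources used here. Lists on ce10 were left out.

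Genes, exons and 5′ ends came from Ensembl release 115, and sequence from RefSeq WBcel235. Summits were assigned with Python 3.11.15 and pandas 2.3.3, intervals are exact Clopper-Pearson from scipy 1.17.1, and the step was checked on simulated data. Intervals cover counting error over genes only. Members, classes and lists were chosen with earlier results of these data known, so counts and differences are descriptions without a test. All members are named. Values in full are given for up to 4 genes per class with the strongest IDR peak, and for up to 4 without one that had the strongest pooled candidate. For other splicing genes up to 3 per list are named. The alternatives were other promoter windows, 5′ ends, peak limits, nearest genes and single replicates.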

Additional observations from a re-analysis of the deposited data

How the results depend on the processing

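The higher share of SR than Sm genes kept its direction under 9 alternatives, between 3.57 and 33.9 percentage points. These alternatives recount largely the same genes, put forward with their peaks known, so they are not independent of each other. Counting a peak for its nearest gene only gave 29.8% for members, 28.6% for Sm genes and 36.6% for other splicing genes. That setting also set the median signal at 76.2 for SR genes and 0 for Sm genes, a difference of 76.2 instead of 14.9. The wider window, 2000 bp upstream to 500 bp downstream, gave 100% of SR genes. The 1202 strongest peaks gave 32.9% of other splicing genes. With snr- and snrp- genes together the median difference was 37.2 (90.5 against 53.4). Leaving out a replicate gave median differences of 1.84 (replicate 1 list, 11.6 against 9.80) to 17.8 (replicate 2 list, 79.7 against 61.9), in the units of each list. Without rsp-5 and snr-3, an alternative chosen after seeing the data, the shares were 85.7% for SR genes and 66.7% for Sm genes. Requiring summits within 50 bp, or overlap of 50% of both regions, left 15 or 13 of the 20 member peaks with a region in each replicate. The overlap rule depends on region width. The usual width is 380 bp in replicate 1, and narrow peaks cannot cover 50% of that. These were rsp-6 (182 bp), rsp-3 (107 bp), prp-19 (121 bp) and snrp-3 (84 bp). At snr-4 the replicate 2 region was 84 bp wide. All of these peaks had summits within 50 bp in each replicate.

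No paired analysis was possible because both replicates belong to 1 group. Read depth is unknown, and at 8 SR and 7 Sm genes the intervals of the shares are wide. These intervals treat genes as independent, although some share a peak, and they do not measure the spread between replicates. A shared peak cannot be given to 1 of its genes, and annotated 5′ ends were taken as they stand, also for trans-spliced genes.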
